A study of Caenorhabditis elegans with 123 samples.

Results

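The genes that encode the proteins of the cytosolic ribosome were followed through early embryogenesis of Caenorhabditis elegans on Affymetrix arrays. Members were the genes whose platform symbol starts with rps- or rpl- followed by a number. Each gene was read from its brightest probe set, the set of short probes annotated to its symbol alone with the highest mean over all arrays. The suffix of 42 of these sets marks probes shared within a family, and that of 12 marks probes shared more widely. The rule gave 75 genes of the 17118 genes with 1 symbol: 30 proteins of the small subunit and 45 of the large subunit. Of these, 74 had a mean log2 value of at least 5, and no filter on low values was applied. The exception was rpl-42, with a mean of 3.34 on arrays whose medians lay between 3.24 and 3.41. It is kept in every count below, although its signal was close to that of the median probe set.

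The ribosome translates mRNA into protein: the small subunit holds and decodes the mRNA, and the large subunit joins amino acids and releases the growing chain through an exit tunnel. Each subunit is a folded ribosomal RNA clothed in many small, mostly basic proteins, and most of these are needed in equal amounts. The early worm embryo divides without growing and inherits ribosomes and mRNAs from the oocyte, so that many mRNAs of the first times are maternal.

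RNA came from staged pools of embryos grown at 22 degrees C and collected at 10 times, from 0 to 186 min after the 4-cell stage. The wild type N2 gave 34 arrays. The mutant mex-3(zu155) treated with skn-1(RNAi) gave 28, the mutant pie-1(zu154) gave 27, and pie-1(zu154) treated with pal-1(RNAi) gave 34. The genotypes with RNAi are written mex-3/skn-1 or pie-1/pal-1 for short. MEX-3 is a maternal RNA-binding protein that keeps pal-1 mRNA from being translated in the anterior, SKN-1 and PAL-1 are transcription factors that specify posterior lineages, and PIE-1 is a repressor of transcription in the germline precursors. Each of the 40 groups of genotype and time had 2 to 4 arrays. The pools held 20 to 75 embryos on the 14 arrays for which a number was noted. The labels do not say whether replicates came from separate collections, so a p-value reflects only how far these arrays scattered, in part perhaps for technical reasons.

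In whole-embryo RNA, fewer cells of a type and less RNA per cell cannot be told apart. The mean of 6 oocyte and early embryo markers lay between 5.73 and 9.84 on the early arrays and between 3.85 and 6.79 on the late ones. The mean of 4 later embryo markers went from 3.09 to 3.47 on the early arrays up to 3.79 to 6.70 on the late ones. Single markers differed by genotype. The mean of hlh-1 went only from 2.72 to 2.87 in pie-1 and from 2.75 to 3.07 in pie-1/pal-1. In mex-3/skn-1 pha-4 went from 3.27 to 3.37 and elt-2 from 3.34 to 3.60. The other markers of this list rose by more in these genotypes, and in N2 all 4 rose. Early zygotic markers lay between 3.11 and 6.63 on the early arrays and between 3.29 and 6.49 on the late ones. Adult soma markers stayed between 2.76 and 4.24 and sperm markers between 2.75 and 3.48. The early pal-1 level in pie-1/pal-1 ran from 4.95 to 12.21, with a median of 5.55 against 8.06 in N2, so that not every array labelled pal-1(RNAi) had a low value. On the early arrays pie-1 stayed at 3.76 or below in both pie-1 genotypes and mex-3 at 3.95 or below in mex-3/skn-1. For skn-1 the early values in mex-3/skn-1 ran from 3.30 to 3.93 (median 3.67) and overlapped those of N2, from 3.67 to 4.74 (median 3.91). The log2 difference between 3' and 5' probe sets for GAPDH, which grows as RNA is degraded, was 0.77 ± 0.27 (SD) in N2, 1.48 ± 0.39 in mex-3/skn-1, 1.19 ± 0.38 for pie-1 alone and 1.40 ± 0.30 in pie-1/pal-1. Each recorded scan day held arrays of 1 genotype, so scan day and genotype cannot be told apart. Arrays were said to stand apart by the SD, over probe sets, of the difference from the mean of the others in the group. This SD had to exceed the median of all arrays by more than 3 median absolute deviations, and for 10 arrays it did. In a group of 2 arrays both have the same SD, so both stand apart or neither does. The arrays of mex-3/skn-1 at 101 and 143 min are such groups, and which array deviates cannot be told there.

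The median of the 75 members was higher at 186 min than at 0 min in all genotypes. In N2 the arrays at 0 min had medians from 6.79 to 7.50, those at 83 min from 8.31 to 8.65 and those at 186 min from 9.63 to 9.87. In mex-3/skn-1 the medians ran from 6.19 to 7.04 at 0 min and from 9.75 to 10.09 at 186 min. No array at 186 min overlapped with an array at 0 min in either genotype. In pie-1 the range at 0 min was 7.54 to 7.80 and at 186 min 9.45 to 9.74, and in pie-1/pal-1 it was 5.93 to 7.39 and 9.13 to 9.47. The 0 min arrays of pie-1 were the highest of the 4 genotypes, and those of pie-1/pal-1 spread the most (SD 0.61).

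**Figure D1:**
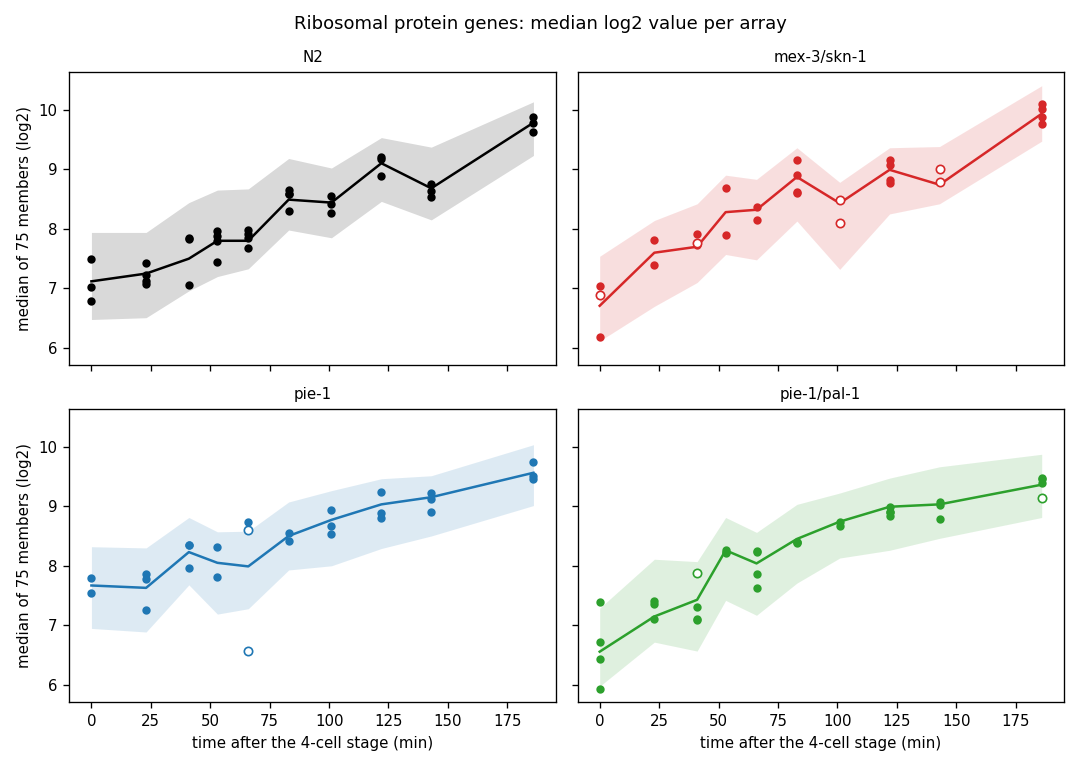
Median log2 value of the 75 ribosomal protein genes on each array (points) against time after the 4-cell stage in minutes, 1 panel per genotype. Lines join medians of the group means, bands hold the middle quartiles of the group means, and open points are the 10 arrays that stood apart. Medians in N2 rose from 7.12 at 0 min to 9.78 at 186 min, and 1 pie-1 array at 66 min lies at 6.58, far below the other arrays of its group.

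To compare windows, the late mean (101, 122, 143 and 186 min) was set against the early mean (0, 23 and 41 min) in limma, and genes were called where the change reached 2-fold with an adjusted p below 0.05. In N2 63 of 75 members rose and 0 fell, with a median change of 1.61 (log2), against 6.7% of all 22548 probe sets called higher and 8.24% called lower. In mex-3/skn-1 63 rose and 0 fell (median 1.56), against 4.11% and 5.81% of all probe sets. In pie-1 52 rose and 0 fell (median 1.13), against 5.46% and 8.28%, and 23 rose when only the times with lettered N2 arrays were used. In pie-1/pal-1 66 rose and 0 fell (median 1.82), against 6.8% and 6.13%. The median change over all probe sets lay between -0.01 and 0.03, and over those with a mean of at least 5 between -0.30 and -0.09. At an adjusted p under 0.05 alone, 69 to 71 members were higher and none was lower in each genotype, against 34.1% of all probe sets in either direction in N2, 26.5% in mex-3/skn-1, 32.5% for pie-1 alone and 31.7% in pie-1/pal-1.

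Most members were called in every genotype. Of the 75, 51 were called higher in all 4 genotypes, 10 in 3, 3 in 2, 4 in 1 and 7 in none. The same overlap was not counted over all probe sets, so these counts have no reference. The 7 called in none were rps-2, rpl-10L, rpl-11.1, rpl-12, rpl-23A.2, rpl-41.2 and rpl-42. Over the 75 members the changes in N2 correlated with those of mex-3/skn-1 (Pearson r = 0.92), of pie-1 alone (0.93) and of pie-1/pal-1 (0.96). These values describe genes that were read on the same arrays and are not independent of each other.

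**Figure D2:**
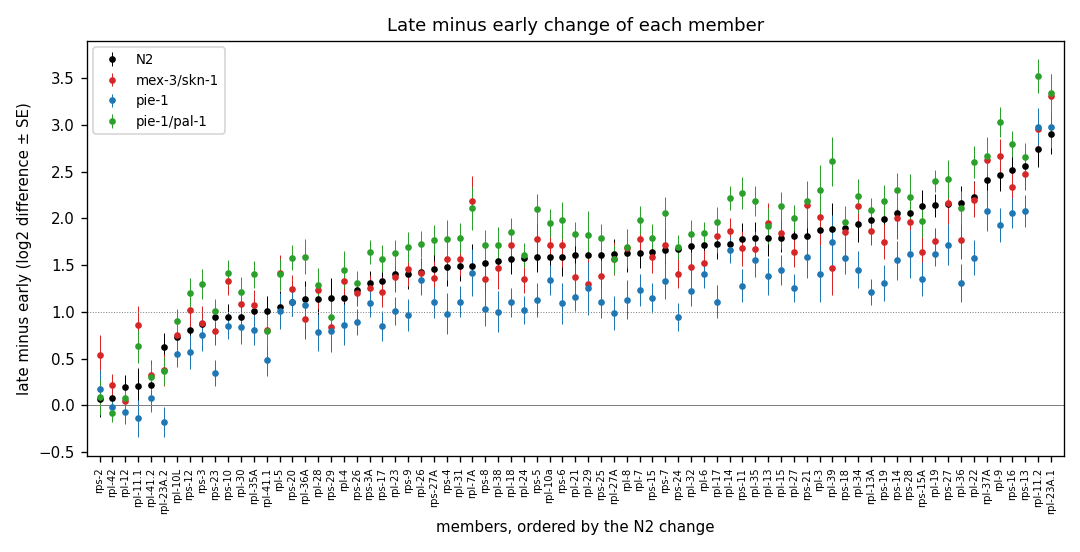
Late minus early change of each of the 75 members (log2 difference ± SE from limma), ordered by the change in N2, in 4 genotypes. Most members lie between 1 and 2.5, the members at the left changed by less than 2-fold, and rpl-11.2 and rpl-23A.1 at the right change by 2.74 to 3.52.

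Proteins of the small subunit rose by a median of 1.59 in N2 (25 of 30 called), and those of the large subunit by 1.61 (38 of 45 called). In pie-1 the medians were 1.10 and 1.21, and in pie-1/pal-1 1.78 and 1.83. In mex-3/skn-1 they were 1.51 and 1.56, and the difference between subunits was not tested.

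Among small subunit genes rps-13 and rps-16 had the largest changes in N2. Early N2 values of rps-13 ran from 5.90 to 7.34 (median 6.51, n = 10) and late values from 8.01 to 10.07 (median 8.90, n = 12). The windows did not overlap, and the change was 2.56 ± 0.15 (limma, adjusted p = 4.17e-27). For rps-16, which encodes a protein of the head of the subunit, early values ran from 7.29 to 8.89 (median 8.10) and late values from 9.74 to 11.32 (median 10.60), again without overlap. The change was 2.52 ± 0.15 in N2, 2.34 ± 0.16 in mex-3/skn-1, 2.06 ± 0.16 with pie-1 mutated alone and 2.80 ± 0.14 in pie-1/pal-1.

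The small subunit gene rps-2, whose protein lies near the entry of the mRNA channel, was flat in N2. Its early values ran from 8.55 to 9.99 (median 9.23, n = 10) and its late values from 8.50 to 9.86 (median 9.54, n = 12). The windows overlapped almost entirely, and the change was 0.07 ± 0.19 (limma, adjusted p = 0.871). In the mutants it was 0.54 ± 0.21 (mex-3/skn-1), 0.17 ± 0.21 (pie-1 alone) and 0.09 ± 0.19 (with pal-1(RNAi) added). At 186 min its 4 pie-1/pal-1 arrays read 8.83, 8.87, 8.03 and 6.59, and the lowest of these stood apart from its group.

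Other small subunit genes that share a number with another member lay between these extremes. The change in N2 was 0.87 ± 0.16 for rps-3 and 1.31 ± 0.13 for rps-3A, which encode different proteins despite the shared number. It was 1.64 ± 0.15 for rps-15 and 2.13 ± 0.17 for rps-15A, and 2.15 ± 0.21 for rps-27 and 1.46 ± 0.16 for rps-27A. Of these 6 genes, all but rps-3 were called higher in N2 at 2-fold.

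Among large subunit genes, rpl-12, whose protein sits at the base of the flexible stalk, did not pass the test. Early N2 values ran from 9.42 to 10.39 (median 9.64) and late values from 9.65 to 10.11 (median 9.93). They overlapped over most of their range, and the change was 0.20 ± 0.12 (limma, adjusted p = 0.237). In the mutants the change lay between -0.07 and 0.08. The weak signal of rpl-42 changed by 0.08 ± 0.11 in N2, with early values from 3.03 to 3.48 and late values from 3.00 to 3.61.

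The genes with the largest residual spread between arrays were rpl-3, rpl-39 and rpl-29. Early N2 values of rpl-39, a very small protein that lines the exit tunnel, ran from 4.25 to 6.93 (median 5.31) and late values from 6.22 to 7.86 (median 7.30). The windows overlapped at their edges. The change was 1.89 ± 0.27 in N2 and 2.61 ± 0.26 in pie-1/pal-1. For rpl-3, a protein close to the peptidyl transferase centre, the change was 1.88 ± 0.28 in N2. Over members the residual SD ran from 0.25 to 0.67 with a median of 0.39, and over the other 3718 probe sets whose mean reached 5 its median was also 0.39.

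The spread of changes over members was narrow around its centre. In N2 the quartiles were 1.15 and 1.85, and values outside 1.5 times the interquartile range of the quartiles were rpl-42 and rps-2 below and rpl-23A.1 above. In pie-1/pal-1 the quartiles were 1.51 and 2.16, with rpl-41.2, rpl-12, rpl-42, rps-2 and rpl-23A.2 below and rpl-11.2 and rpl-23A.1 above. Over the 74 members with a mean of at least 5, the change in N2 and the mean level had a Pearson r of -0.34, so that brighter members tended to change less. This describes genes read on the same arrays, and several of the flat members were among the brightest.

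The largest changes in N2 were those of rpl-23A.1 and rpl-11.2, which each have a second gene for the same protein. The protein L11, which joins the 5S ribosomal RNA in the central protuberance of the large subunit, is encoded by rpl-11.1 on chromosome V and rpl-11.2 on chromosome X. The protein L23A, which sits at the exit of the tunnel, is encoded by rpl-23A.1 on chromosome X and rpl-23A.2 on chromosome I. The genes rpl-11.2 and rpl-23A.1 were the only members on the X chromosome. All other 73 lie on autosomes: 23 on I, 10 on II, 17 on III, 16 on IV and 7 on V, with chromosomes taken from RefSeq WBcel235. In both pairs the copy on X had the larger change.

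In N2 rpl-11.2 read 5.15, 5.34 and 5.23 at 0 min and 9.52, 9.29 and 9.30 at 186 min. Its partner rpl-11.1 read 7.10, 7.29 and 6.98 at 0 min and 6.47, 6.93 and 6.95 at 186 min. Both probe sets carry the suffix of sets whose probes can match several transcripts of a family, so that signal from 1 copy can add to the other. Over the windows rpl-11.2 rose by 2.74 ± 0.19 in N2 (limma, adjusted p = 8.12e-24), 2.96 ± 0.20 in mex-3/skn-1, 2.98 ± 0.20 for pie-1 alone and 3.52 ± 0.18 in pie-1/pal-1. The change of rpl-11.1 was 0.21 ± 0.19 in N2 (adjusted p = 0.469), 0.86 ± 0.20 in mex-3/skn-1, -0.14 ± 0.20 for pie-1 alone and 0.63 ± 0.18 in pie-1/pal-1, below 2-fold in every genotype. The other probe set of rpl-11.2 rose by 2.37 in N2.

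The group mean of rpl-11.1 in N2 was not flat over time. It climbed from 7.12 at 0 min to 8.13 at 83 min and was 6.78 at 186 min. In pie-1 it was 7.53, 8.00 and 6.81 at the same times, and in pie-1/pal-1 5.84, 7.45 and 6.44. In mex-3/skn-1 the mean was 6.28 at 0 min, 8.13 at 83 min and 7.80 at 186 min, where the 4 arrays read 8.22, 7.63, 7.76 and 7.61. These lay above all arrays of the other genotypes at that time, which ranged from 5.81 to 7.02, a difference that was seen in the values and was not tested at 186 min alone.

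In N2 rpl-23A.1 read 5.16, 5.40 and 5.07 at 0 min and 8.85, 8.99 and 9.07 at 186 min, with no overlap. Its partner rpl-23A.2 read 8.56, 8.82 and 8.35 at 0 min and 9.26, 9.33 and 9.59 at 186 min. The change between windows was 2.90 ± 0.21 for rpl-23A.1 (limma, adjusted p = 7.49e-22) and 0.62 ± 0.15 for rpl-23A.2 (adjusted p = 0.000378, below 2-fold). The probe set of rpl-23A.1 carries the suffix for shared family probes and that of rpl-23A.2 does not. In the mutants rpl-23A.1 changed by 2.98 to 3.34 and rpl-23A.2 by -0.18 to 0.38.

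The third pair, rpl-41.1 and rpl-41.2, encodes a very short basic protein and lies side by side on chromosome I. Early N2 values of rpl-41.1 ran from 8.15 to 10.06 (median 8.84) and late values from 8.95 to 10.98 (median 9.95). For rpl-41.2 they ran from 9.19 to 10.88 (median 10.03) and from 9.43 to 10.77 (median 10.32). The windows overlapped in both genes. The change in N2 was 1.01 ± 0.16 for rpl-41.1 and 0.22 ± 0.14 for rpl-41.2, and both probe sets carry a suffix that marks probes shared with other sequences.

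To compare 2 copies directly, the log2 difference between them was taken within each array. Its late mean was set against its early mean by a two-sided permutation test over arrays. The p-values were adjusted over the 12 tests of 3 pairs in 4 genotypes. Each window holds arrays of several times, which the test treated alike, and the SDs given here include the change over these times. The difference rpl-11.2 minus rpl-11.1 moved by 2.51 in N2, from -1.72 ± 0.23 (SD, n = 10) to 0.78 ± 1.20 (n = 12) (permutation, adjusted p = 3.0e-05). It moved by 2.18 in mex-3/skn-1 and 3.16 for pie-1 alone (exact permutation, adjusted p = 6.9e-05 and 3.0e-05) and by 2.95 in pie-1/pal-1. The difference rpl-23A.1 minus rpl-23A.2 moved by 2.30 in N2, from -3.51 ± 0.26 to -1.21 ± 0.57, by 3.01 in mex-3/skn-1, by 3.19 for pie-1 alone and by 3.06 in pie-1/pal-1, each at an adjusted permutation p of 3.0e-05. The unadjusted p behind this value was 1.6e-05 (exact, 8 against 12 arrays) or 2.0e-05 (100000 resamples), the smallest each test can give. The late arrays lay wholly above the early arrays in every genotype for the L23A pair. For the L11 pair they did so in N2 and pie-1, and overlapped in pie-1/pal-1 as well as mex-3/skn-1.

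The difference rpl-41.1 minus rpl-41.2 moved less, by 0.80 in N2, 0.49 in mex-3/skn-1, 0.38 for pie-1 alone and 0.53 in pie-1/pal-1 (adjusted permutation p from 3.0e-05 to 0.00122), and its early and late arrays overlapped in every genotype. The 3 differences are changes between early and late arrays and say nothing on which copy is more abundant, since probe sets differ in brightness. Without the arrays that stood apart, no adjusted p exceeded 0.004 and the movements lay between 0.38 and 3.36.

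**Figure D3:**
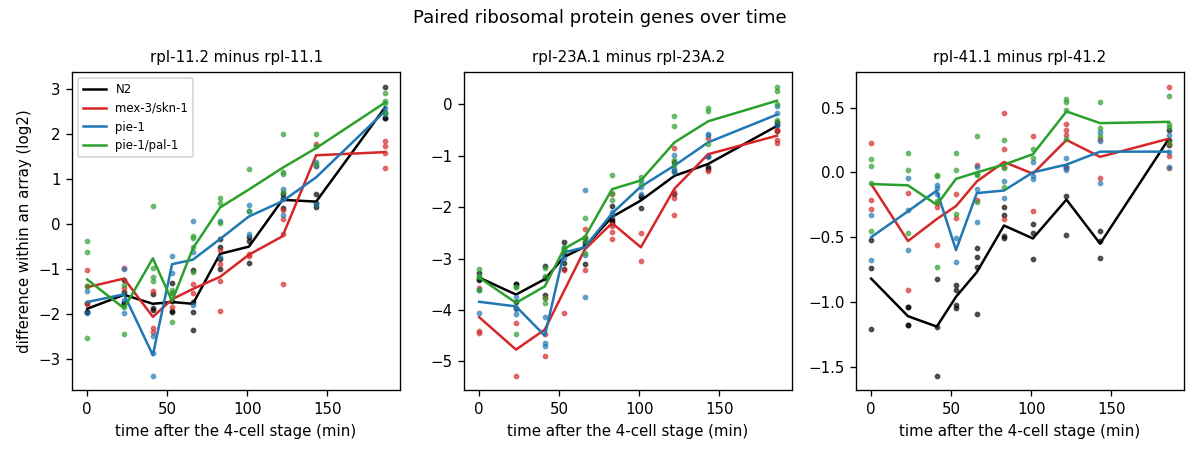
Log2 difference between 2 copies within an array (points) and between group means (lines) against time after the 4-cell stage in minutes, for 3 pairs and 4 genotypes. The differences of the L11 and L23A pairs rise by 2.18 to 3.19 between the windows in all genotypes, and that of the rpl-41 pair by 0.38 to 0.80.

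The time of rise was taken as the first time from which at least 38 of 75 members were called higher than the early window at that and every later time. In N2 it was 83 min: 1 member was called at 53 min, 4 at 66 min, 48 at 83 min, 41 at 101 min, 61 at 122 min, 56 at 143 min and 69 at 186 min. All probe sets gave 2.54%, 2.44%, 5.7%, 5.65%, 7.04%, 8.43% and 6.59% called higher at these times. In pie-1/pal-1 the time was also 83 min, with 48, 23, 55, 63, 66, 67 and 66 members against 2.33%, 4.02%, 5.42%, 7.58%, 7.17%, 6.07% and 6.94%. At 53 min pie-1/pal-1 had 48 members called and 23 at 66 min, so the count crossed the mark before it held. The N2 time rested on the 41 members called at 101 min: it became 122 min with centring on the array median, with scan day as a random block, and without the arrays labelled D, G, H or P, each left out in turn.

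In mex-3/skn-1 the time of rise was 122 min. Its counts were 16, 16, 60, 18, 62, 54 and 70, against 2.35%, 3.03%, 5.06%, 3.0%, 5.14%, 3.12% and 7.54%. The time was set by the 18 members called at 101 min, where the 2 arrays differed from each other and so both stood apart. Without the arrays that stood apart no array was left at 101 and 143 min, 61 members were called at 83 min and the time was 83 min. At 143 min, where both arrays also stood apart, the median over all probe sets whose mean reached 5 was -0.68. In pie-1 the counts were 2, 0, 8, 19, 46, 50 and 63, against 1.62%, 2.33%, 5.0%, 5.19%, 5.42%, 5.85% and 5.69%, and the time was 122 min. At 66 min the 3 pie-1 arrays had member medians of 6.58, 8.60 and 8.73; without the lowest, 21 members were called there in place of 0. That array was the only pie-1 array with a recorded amount of hybridised material, 2 µg, against 0.6 to 1 µg on the other mutant arrays with a record. The count of 0 at 66 min stood beside 9 members at an unadjusted p under 0.05 in limma, against 30.7% of all probe sets. Without the arrays labelled 2 the pie-1 time was 186 min, and with centring on brighter probe sets it was 101 min.

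**Figure D4:**
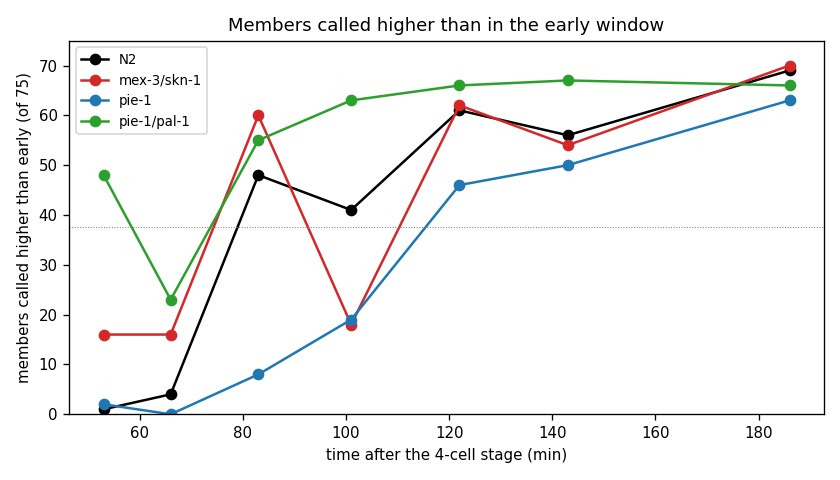
Number of the 75 members called higher than in the early window (adjusted p under 0.05 and at least 2-fold, limma) at each time after the 4-cell stage in minutes, in 4 genotypes. The dotted line separates 37 members from 38. N2 passes it at 83 min and pie-1 at 122 min, and mex-3/skn-1 drops to 18 at 101 min.

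These times depend on the early window that each genotype is compared with and on the number of arrays at each time. The difference between genotypes at 53 min was tested by itself, as the change from the early window to 53 min in a mutant against that in N2. It called 0 members in each of the mutants, against 1.3% of all probe sets in mex-3/skn-1, 0.00443% for pie-1 alone and 0.146% in pie-1/pal-1. At an unadjusted p under 0.05 the counts in the same order were 4, 8 and 27 members in limma, against 11%, 5.48% and 7.66% of all probe sets. The median difference was 0.43 in mex-3/skn-1 (73 of 75 members positive), -0.34 for pie-1 alone (11 positive) and 0.62 in pie-1/pal-1 (74 positive), and no member passed the adjusted test in any of them. Over all probe sets whose mean reached 5 the median difference in the same order was 0.26, -0.19 and -0.04.

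A second measure of timing was the interpolated midpoint between the early window and the mean of 143 and 186 min, over members that rose at least 2-fold on that scale. The midpoint was read at its first crossing, whether or not later times stayed above it. In N2 it was reached at a median of 76.0 min over 66 members, with quartiles of 73.2 and 78.1 min. In mex-3/skn-1 the median was 70.4 min (65 members, quartiles 53.1 and 73.7), in pie-1 91.9 min (60 members, quartiles 82.0 and 100.9) and in pie-1/pal-1 52.2 min (67 members, quartiles 50.6 and 71.8). The early window of pie-1 was higher than that of N2 and its total rise smaller, and a midpoint depends on both. The pie-1 means at 66 min also include the array with a member median of 6.58. Without that array the median change from the early window at 66 min was 0.76 in place of 0.07. The pie-1 midpoints were not recomputed without it and may lie earlier. Each midpoint rests on group means of 2 to 4 arrays, and no error or test was computed for it.

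Within N2 the earliest midpoints belonged to rpl-5 at 51.7 min, which binds the 5S ribosomal RNA with L11, and rpl-39 at 63.6 min. The latest were rpl-26 at 107.2 min and rpl-10a at 106.7 min. For rpl-5 early N2 values ran from 8.12 to 8.90 (median 8.36) and late values from 8.76 to 10.27 (median 9.38), and the windows overlapped at their edge.

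**Figure D5:**
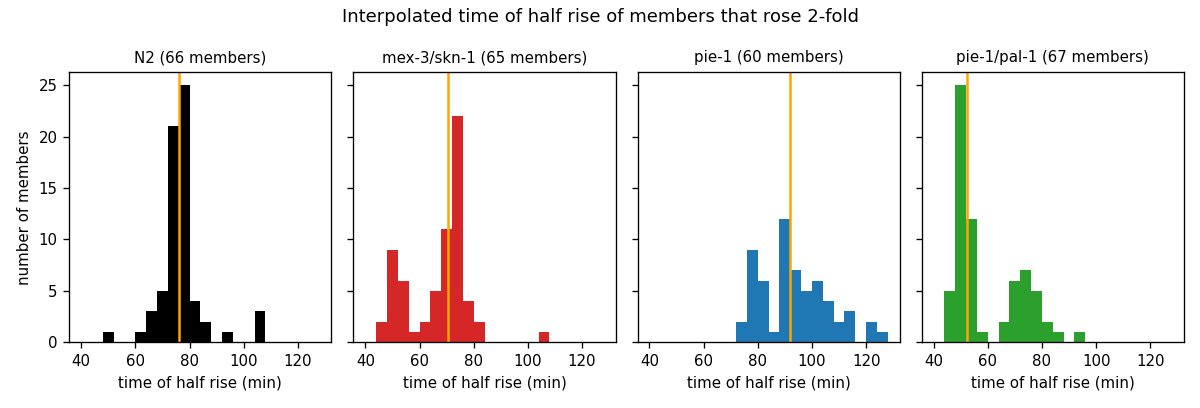
Number of members by interpolated midpoint of the rise (first crossing) in minutes after the 4-cell stage, for members that rose at least 2-fold between the early window and the mean of 143 and 186 min, in 4 genotypes (66, 65, 60 and 67 members). Orange lines mark the medians at 76.0, 70.4, 91.9 and 52.2 min.

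The rise was not even from one time to the next. In N2 the median step was 0.64 from 66 to 83 min and 0.93 from 143 to 186 min, when 71 and 73 of 75 members went up. From 122 to 143 min it was -0.29 and 60 members went down, and from 83 to 101 min it was -0.10 with 50 down. Neither step called a member lower at 2-fold (0.0843% and 0.195% of all probe sets), and at an unadjusted p under 0.05 limma gave 9 and 3 members, against 8.15% and 6.98% of all probe sets. In mex-3/skn-1 the step from 83 to 101 min was -0.52 with 66 members down, and 9 of them fell by at least 2-fold at an adjusted p under 0.05, against 1.9% of all probe sets called lower. Both arrays at 101 min stood apart and were scanned on other days than the 4 arrays at 83 min, so this fall has no value without them. The largest fall was in rpl-5 (-1.43 ± 0.35, adjusted p = 0.00828). In pie-1/pal-1 the median step was positive from 66 min on. In pie-1 it was positive from 83 min on, and the step of 0.46 from 66 to 83 min rested on the low array at 66 min: without it the median change from the early window was 0.76 at 66 min and 0.55 at 83 min. N2 arrays at 101 and 143 min carry letters as replicate labels and those at 83, 122 and 186 min numbers, a difference in labelling whose part in these steps was not tested.

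The mutants were next compared with N2 within each window. The comparisons share the N2 arrays, so a deviation of these moves all of them. In the early window mex-3/skn-1 embryos had 1 member higher and 3 lower than N2 embryos, against 0.368% and 6.82% of all probe sets. In pie-1/pal-1 the counts were also 1 and 3, against 0.137% and 3.78%. The lower members were rpl-7A, rpl-5 and rps-2 in both genotypes, and the higher one was rpl-41.1. In pie-1 8 members were higher and 0 lower, against 0.191% and 2.37%. The number higher was 24 with quantile normalization, 20 with centring on brighter probe sets, 13 without the rehybridised N2 arrays or without the arrays labelled S, and 5 without those labelled D.

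For rpl-7A early values ran from 6.55 to 8.01 in N2 (median 7.40, n = 10), from 4.46 to 6.78 in mex-3/skn-1 (median 5.27, n = 8) and from 4.41 to 7.03 in pie-1/pal-1 (median 5.40, n = 11). Most mutant arrays lay below all N2 arrays, with some overlap at the edge. The differences from N2 were -1.86 ± 0.26 in mex-3/skn-1 (limma, adjusted p = 1.03e-08) and, for pie-1/pal-1, -1.57 ± 0.24. For rpl-5 they were -1.09 ± 0.20 and -1.20 ± 0.18, and for rps-2 -1.12 ± 0.22 and -1.05 ± 0.20. The gene rpl-41.1 was higher by 1.15 ± 0.18 and 1.13 ± 0.16 in these genotypes and by 1.25 ± 0.18 in pie-1. Beside these counts, a fit with the GAPDH difference as a term left 1 lower member in both genotypes, and centring on the brighter probe sets turned the split in mex-3/skn-1 to 11 higher and 1 lower. Without the arrays that stood apart the split was 0 higher and 1 lower in mex-3/skn-1 and 1 higher and 9 lower in pie-1/pal-1.

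The 8 members that were higher in early pie-1 embryos were rpl-23A.2, rpl-27, rpl-29, rpl-36, rpl-38, rpl-41.1, rps-24 and rps-27. The largest difference was in rpl-38, whose early values ran from 6.17 to 8.01 in N2 (median 6.59) and from 7.60 to 8.72 for pie-1 alone (median 8.34). The ranges overlapped, and the difference was 1.36 ± 0.23 (limma, adjusted p = 2.37e-06). For rps-27 the difference was 1.29 ± 0.23. The median over all 75 members was 0.45 higher in pie-1, while that of all probe sets whose mean reached 5 was 0.20 lower, and 38 members were higher and 3 lower at an adjusted p under 0.05 alone, against 23.7% of all probe sets in either direction.

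In the late window few members differed by 2-fold. Against N2, 1 member was called in mex-3/skn-1 (rpl-7A, a difference of -1.16 ± 0.23), 0 for pie-1 alone and 1 in pie-1/pal-1 (rps-2, a difference of -1.03 ± 0.18), against 6.27%, 2.96% and 2.33% of all probe sets called in either direction. At an unadjusted p under 0.05 limma gave 32 members in pie-1, against 49.0% of all probe sets. Without the arrays that stood apart, both of these calls were lost and 4 members were higher in mex-3/skn-1. With the GAPDH difference as a term, no member was called in either. The median difference of the members from N2 was 0.02 in mex-3/skn-1, 0.12 for pie-1 alone and 0.03 in pie-1/pal-1. For all probe sets whose mean reached 5 it was lower, at -0.50, -0.34 and -0.24 in the same order. Relative to these probe sets the members were thus higher in each mutant, a gap that was not tested. Between pie-1/pal-1 and pie-1 no member was called (0.0399% of all probe sets, with 3 members and 15.9% of all probe sets at an unadjusted p under 0.05), and none was called between the genotypes with RNAi (2.95%, with 8 members and 28.4% of all probe sets at an unadjusted p under 0.05).

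The change from early to late was compared between genotypes directly. No member was called at 2-fold, against 3.7% of all probe sets for mex-3/skn-1, 0.887% for pie-1 alone and 1.17% for pie-1/pal-1, and limma gave 3, 24 and 7 members at an unadjusted p under 0.05, against 21.7%, 13.8% and 16.1% of all probe sets. In pie-1 71 of 75 members changed less than in N2, with a median difference of -0.40. In pie-1/pal-1 67 changed more, with a median difference of 0.26. For all probe sets whose mean reached 5 these medians were -0.18 and 0.05, so part of the shift was shared with them. The share of all probe sets that changed less or more is not given here. For 3 members the difference in pie-1 passed the adjusted p without reaching 2-fold: rpl-23A.2 (-0.80 ± 0.22, adjusted p = 0.0195), rpl-13A (-0.77 ± 0.19, 0.00607) and rps-24 (-0.74 ± 0.20, 0.0152). Over the members the differences ran from -0.85 to 0.25 for pie-1 alone and from -0.25 to 0.78 in pie-1/pal-1.

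Members followed one another closely over the 40 group means. The Pearson correlation of a member with the median of the other members had a median of 0.95, and 54 of 75 were at 0.9 or above. Deviations of single arrays from their group mean were also shared, with a median correlation of 0.78, so that an array high in 1 member tended to be high in the rest. The lowest correlations over group means were those of rpl-42 (0.14), rps-2 (0.17), rpl-12 (0.20), rpl-11.1 (0.33) and rpl-41.2 (0.41). All these values come from the same arrays and are given as descriptions.

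Of the 75 members, 32 had several probe sets. Among these the change in N2 differed between probe sets by a median of 0.14, and the call differed in 6. The widest gap was in rpl-8, which changed by 1.63 on its brightest probe set and by 0.06 on a dim one with a mean of 2.69. Members on probe sets without a suffix for shared probes rose by a median of 1.63 in N2 (21 members), those with shared family probes by 1.58 (42) and those with probes shared more widely by 1.60 (12).

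Outside the naming rule, the probe sets whose 40 group means were most like the median of the members were led by other parts of the ribosome. They were rpsa-1 (r = 0.958), which encodes a further small subunit protein, ubq-2 (0.957), a fusion of ubiquitin with a large subunit protein, nog-1 (0.921), a GTPase of large subunit assembly, lbp-1 (0.920), a lipid-binding protein, and spc-1 (0.919), alpha spectrin. F46E10.2, K02B7.3 and the stalk protein gene rplp-2.1 followed at 0.916, 0.915 and 0.913. In N2 early values of rpsa-1 ran from 7.54 to 8.60 (median 7.97) and late values from 9.28 to 10.30 (median 9.65), without overlap, and the change was 1.69 ± 0.14 (limma, adjusted p = 7.93e-19). The change of lbp-1 was much larger, at 4.45 ± 0.16. Likeness here is over 40 group means of 1 set of arrays and says nothing of shared function.

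Other genes of translation are given by lists. Of the list of stalk, ubiquitin fusion and scaffold genes 2 of 6 had a probe set under the listed name, ubq-2 and the scaffold gene rack-1, and both rose in N2, by 1.04 ± 0.11 and 1.25 ± 0.18. Of 10 elongation and termination genes 2 rose and 0 fell in N2 (median -0.27), against 6.7% and 8.24% of all probe sets. The translation factor iff-2 rose by 2.49 ± 0.17 and the release factor gene erfa-1 by 1.01 ± 0.16, whereas eef-1G changed by -0.97 ± 0.13 and eef-1B.2 by -0.90 ± 0.15. In pie-1 1 of the 10 rose and 2 fell, against 5.46% and 8.28% of all probe sets.

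Of 21 measured initiation genes 7 rose and 2 fell in N2 (median 0.17), against 6.7% and 8.24% of all probe sets. The poly(A)-binding protein genes pab-1 and pab-2 rose by 2.26 ± 0.18 and 2.16 ± 0.15, the cap-binding gene ife-4 by 1.64 ± 0.15 and the scaffold gene ifg-1 by 1.83 ± 0.19. In pie-1 7 rose and 7 fell, against 5.46% and 8.28% of all probe sets. Of 25 measured genes of ribosome biogenesis 3 rose and 0 fell in N2 (median 0.01), against the same 6.7% and 8.24% of all probe sets. Among the risers were pro-1 (1.08 ± 0.14) and rbd-1 (1.13 ± 0.16). The nucleolar genes nol-6 and nol-56 changed by 0.89 ± 0.10 and 0.78 ± 0.11, below 2-fold.

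Of 11 measured growth control genes 1 rose and 4 fell in N2 (median -0.63), against 6.7% and 8.24% of all probe sets. The Rag GTPase genes ragc-1 and raga-1, which relay amino acid supply to the TOR kinase, fell by 1.46 ± 0.16 and 1.47 ± 0.18, and mxl-2 fell by 1.36 ± 0.14, while its partner mml-1 rose by 1.31 ± 0.15. Of 59 mitochondrial ribosomal protein genes 1 rose and 4 fell in N2, with a median change of -0.02, against the same shares of all probe sets. In mex-3/skn-1 5 rose and 2 fell, while 2 rose and 5 fell for pie-1 alone and 7 rose and 2 fell in pie-1/pal-1. All probe sets gave 4.11% higher and 5.81% lower in mex-3/skn-1, 5.46% and 8.28% for pie-1 alone, and 6.8% and 6.13% in pie-1/pal-1. The single riser in N2, mrpl-22, changed by 1.32 ± 0.15, and mrpl-44 fell by 1.78 ± 0.21. The cytosolic and mitochondrial sets are counted in the same fit, and the difference between the sets was not tested. Of 2 ribosomal RNA probe sets 1, rrn-3.56, rose in N2 (1.02 ± 0.29, limma, adjusted p = 0.00229). The other, rrn-3.1, changed by -0.41 ± 0.41 in N2, where its early values ran from 10.24 to 11.91. Early values of rrn-3.1 ran from 4.83 to 7.93 in mex-3/skn-1, 6.36 to 9.69 in pie-1 and 5.15 to 7.06 in pie-1/pal-1. All early mutant arrays thus lay below the early N2 arrays for this probe set, and the cause was not tested.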

How the data were processed

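The values deposited by the authors are log2 values, 1 per probe set and array, which they made from the array scans by steps not given in the sources used here. The log2 scale was read from their range of 1.79 to 12.72. Genotype, time and replicate came from the labels, and symbols from the platform annotation. The 77 controls among 22625 probe sets were dropped, which leaves 22548 in every test. 3 probe sets with a ribosomal protein symbol beside another were not used.

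One limma fit (limma 3.58.1 in R 4.3.3) had 40 group means and 83 residual degrees of freedom. Windows were means of group means, and p-values were adjusted by Benjamini-Hochberg over all probe sets. It was tested on simulated data. Differences between copies used permutation tests over arrays.

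The members and gene lists were chosen with earlier results of these data known. The tests of single steps and of the rise at 53 min were chosen after seeing the data. Genes named singly were those with the largest and smallest changes and differences from N2, sharing a number with another member, outside the quartile fences, with the largest or smallest residual SD, with the earliest or latest midpoints, the 8 most alike outside the members, and up to 4 per list; members of counts of 9 or fewer were named after their values were seen. Alternatives changed the scaling, the fold minimum, the windows, the N2 labels used, blocks, the GAPDH difference as a term, and the arrays used. Precision is limited by the number of arrays.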

Additional observations from a re-analysis of the deposited data

Results flagged for a closer look

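In groups of 4 arrays, the gap between 1 array and the other 3 took up most of the range of the group for 9 of 144 combinations of group and gene (11 genes and the median of the members). Chance flags about 1 in 20 groups, close to this number, and some gaps were small on the log2 scale, as for rps-2. In N2 at 66 min, replicate I read 10.07 for rpl-12 (others 9.82 to 9.84), 2.79 for rpl-42 (others up to 3.26) and 9.47 for rps-2 (others 9.51), and replicate 5 read 7.67 for rpl-11.1 (others 7.94 to 7.99). In N2 at 53 min, replicate 1 read 9.64 for rpl-41.2 (others 9.89 to 9.90). In mex-3/skn-1 at 186 min, replicate 5 read 10.81 for rpl-41.1 (others from 11.14) and replicate 7 read 10.39 for rps-13 (others 10.23 to 10.25). In pie-1/pal-1, replicate 3 at 0 min read 10.69 for rpl-41.2 (others 9.73 to 9.87) and replicate 1 at 41 min read 10.36 for rpl-12 (others from 9.96).

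The change from early to late differed between pie-1 and N2 in limma's test of the difference for rpl-13A (-0.77), rps-24 (-0.74) and rpl-23A.2 (-0.80), each smaller in pie-1 and each below 2-fold.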

How the results depend on the processing

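Of 5620 values of named members under alternatives, 5517 were counted as the same, 66 lost a call and 37 gained one. Of the changes called in the main fit, 0 reversed in direction. A change of sign in a member not called in the main fit was counted as the same. Counts of members that rose between windows stayed within 1.5 times, except 23 in pie-1 at the times with lettered N2 arrays. Causes of the shifts below were not tested.

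Early differences from N2 numbered, in mex-3/skn-1, 11 with quantile normalization, 12 with centring on brighter probe sets, 31 with no fold minimum, 2 and 12 at the times with lettered and numbered N2 arrays, 1 with the GAPDH term, 1 without arrays that stood apart and 1 to 6 leaving out replicates. In pie-1 they were 24, 20 and 41 under the first 3 of these, 13 without the rehybridised N2 arrays and 5 to 13 leaving out replicates. In pie-1/pal-1 they were 2 (brighter probe sets), 39 (no fold minimum), 12 (lettered), 1 (numbered), 1 (GAPDH term), 10 (without arrays that stood apart) and 3 to 12 leaving out replicates.

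Late differences numbered, in mex-3/skn-1, 9 (brighter probe sets), 20 (no fold minimum), 4 (lettered), 0 (numbered), 0 (narrow windows), 0 (GAPDH term), 4 (without arrays that stood apart), 2 (without rehybridised arrays) and 0 to 2 leaving out replicates. In pie-1 they were 4 (quantile), 5 (brighter probe sets), 23 (no fold minimum), 5 (lettered) and 0 to 1 leaving out replicates. In pie-1/pal-1 they were 2 (quantile), 3 (brighter probe sets), 29 (no fold minimum), 7 (lettered), 2 (numbered), 2 (narrow windows), 0 (GAPDH term), 0 (without arrays that stood apart), 2 (without rehybridised arrays) and 0 to 5 leaving out replicates. Between the genotypes with RNAi they were 3 (no fold minimum), 1 (lettered), 1 (numbered) and 0 to 1 leaving out replicates.

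Differences in change from N2 numbered 3 (numbered) and 3 (without arrays that stood apart) in mex-3/skn-1, 3 (no fold minimum) and 1 (numbered) in pie-1, and 2 (lettered) and 0 to 1 leaving out replicates in pie-1/pal-1. For pie-1 with no fold minimum 4.1% of all probe sets were called. The time of rise was 122 min in N2 with array-median centring and with scan day as a random block, and 83 to 122 min leaving out replicates. It was 83 min in mex-3/skn-1 without arrays that stood apart, 53 min in pie-1/pal-1 with no fold minimum, and in pie-1 101 min with brighter probe sets and with no fold minimum and 122 to 186 min leaving out replicates.

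The deviations of same-numbered arrays had a median correlation of 0.301 in pie-1/pal-1 (103 of 122 pairs over 0.1, other pairs -0.102), 0.142 in pie-1 (57 of 100, other pairs -0.054), 0.10 in mex-3/skn-1 (22 of 43) and 0.069 in N2 (16 of 38). Not every pair was over 0.1 (lowest -0.48), and the labels do not say what the numbers stand for, so the arrays were not paired. Same-numbered arrays were still more alike than others, most clearly in pie-1/pal-1. The main fit and the permutation tests treated arrays as independent and do not allow for these shared deviations. With a replicate block (correlation 0.097), 63 members rose in N2, 62 in mex-3/skn-1, 51 with pie-1 mutated alone and 65 with pal-1(RNAi) added. Promoter motifs were not run.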
